A study of Mus musculus with 18 samples.

Results

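The replication-dependent histone genes, the clustered genes that supply core and linker histones for newly copied DNA, were examined in ChIP-seq peak lists of cultured mouse B cells. The members were the protein-coding genes of GENCODE M21 (GRCm38) whose symbols start with Hist1h, Hist2h, Hist3h or Hist4h, and the rule found 67 of 21951 protein-coding genes. Each gene was scored with 2 kb on both sides, an interval called its window. The rule used symbols only and no measured value.

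The B cells came from spleens of Mir155-sufficient (WT) mice and of mice constitutively deficient in Mir155 (KO), all on a C57BL/6 J background. All cultures were kept for 2 days in 1% oxygen with anti-CD40 at 1 µg/ml, anti-IgM F(ab')2 at 5 µg/ml and IL-4 at 4 ng/ml, so every group shared the hypoxia and the stimulation. Chromatin was precipitated with an antibody to KDM2A or to H3K36me2, and each genotype had 3 libraries per antibody, 12 peak lists in all. Replicate 1 was male and replicates 2 and 3 were female in every group. The deficiency affects all cells of the mouse, and the labels do not say whether a library came from 1 mouse or from a pool, so the spread between libraries may be partly technical. Input chromatin, 6 further libraries, was not used here except through the folds the authors had computed. Read depths were unknown.

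KDM2A is a demethylase that removes methyl groups from lysine 36 of histone H3, and it binds unmethylated CpG dinucleotides through its CXXC zinc finger. H3K36me2, the dimethylated form of that lysine, is its substrate. Replication-dependent histone genes are short, lack introns in their usual transcripts, end in a stem-loop instead of a poly(A) tail and are transcribed mainly in S phase. Dividing cells, among them stimulated B cells, draw on these genes as they copy their DNA.

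The members lay in 5 groups of neighbouring genes, here called clusters and joined where genes lay less than 500 kb apart. Cluster chr13 A (chr13:21715763-22043676) held 23 members and chr13 B (chr13:23531050-23934851) held 31. The chr3 cluster (chr3:96219865-96270132) held 10, the chr11 cluster (chr11:58948920-58956830) held 2, and Hist4h4 stood alone on chromosome 6 (chr6:136801553-136804415). By type, 6 members encoded the linker histone H1, 18 encoded H2A, 18 H2B, 12 H3 and 13 H4. The genes were short, with a median length of 539 bp against 17403 bp for all protein-coding genes. Because they are packed closely, 61 of the 67 windows overlapped the window of another member, and the windows merged into 26 stretches of 260.535 kb in all. A broad peak therefore often counted for several members, which are not independent observations.

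The lists differed in extent across the whole genome, which bears on every comparison below. KDM2A lists held 23372 to 29105 peaks in WT and 15387 to 21705 in KO. H3K36me2 lists held 85387 to 94136 peaks in WT, 37447 and 45180 in the female KO libraries and 106720 in the male KO library. As a check of the labelled cell type, the lists were read at markers of B cells, T cells and myeloid cells. KDM2A peaks lay at all 7 B cell markers in each WT list and at 6 of 7 in each KO list, at 1 to 4 of 6 T cell markers and at 1 to 4 of 5 myeloid markers. H3K36me2 peaks did not follow the same order, at 4 to 7 of 7 B cell, 2 to 5 of 6 T cell and 3 or 4 of 5 myeloid markers, and their mean coverage in WT was 15.1% at B cell, 14.3% at T cell and 19.2% at myeloid markers. A peak is not a measure of expression, so these counts do not measure purity. The genotype labels could not be checked from the peak lists.

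The start regions of the members with the highest mean KDM2A fold within their window in each cluster, and of Hist1h2ba, which had none in any list, are shown because KDM2A binds CpG. Each is the 250 bases upstream of the RefSeq transcription start (GRCm38.p6), 5′ to 3′ on the strand of the gene, with every CG in capitals. The peak of highest fold in the long window of Hist1h1d lay at a neighbouring gene in 5 of the 6 lists, so its stretch is not that of the strongest peak of chr13 B.
Hist1h3i, chr13:21783398-21783647, minus strand: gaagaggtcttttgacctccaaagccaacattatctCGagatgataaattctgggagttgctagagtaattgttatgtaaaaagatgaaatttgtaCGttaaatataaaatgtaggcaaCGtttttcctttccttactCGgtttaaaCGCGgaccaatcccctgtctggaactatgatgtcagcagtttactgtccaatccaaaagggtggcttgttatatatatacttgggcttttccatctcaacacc
Hist1h1d, chr13:23554782-23555031, plus strand: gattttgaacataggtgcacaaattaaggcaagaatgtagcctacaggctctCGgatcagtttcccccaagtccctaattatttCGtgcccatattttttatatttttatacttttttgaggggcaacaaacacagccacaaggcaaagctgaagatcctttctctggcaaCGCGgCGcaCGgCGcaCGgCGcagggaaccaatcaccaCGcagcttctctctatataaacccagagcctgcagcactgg
Hist2h2aa1, chr3:96245247-96245496, plus strand: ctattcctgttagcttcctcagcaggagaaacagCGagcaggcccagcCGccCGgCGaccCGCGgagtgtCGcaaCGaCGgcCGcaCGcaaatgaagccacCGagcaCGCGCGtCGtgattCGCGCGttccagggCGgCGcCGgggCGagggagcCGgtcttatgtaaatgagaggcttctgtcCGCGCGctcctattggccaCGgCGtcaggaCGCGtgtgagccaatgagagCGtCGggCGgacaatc
Hist3h2a, chr11:58954435-58954684, plus strand: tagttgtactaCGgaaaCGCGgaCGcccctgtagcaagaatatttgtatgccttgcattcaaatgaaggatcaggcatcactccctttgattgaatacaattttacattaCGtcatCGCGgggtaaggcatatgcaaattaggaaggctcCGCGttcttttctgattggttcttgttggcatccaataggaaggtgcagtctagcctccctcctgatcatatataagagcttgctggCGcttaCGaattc
Hist4h4, chr6:136804432-136804681, minus strand: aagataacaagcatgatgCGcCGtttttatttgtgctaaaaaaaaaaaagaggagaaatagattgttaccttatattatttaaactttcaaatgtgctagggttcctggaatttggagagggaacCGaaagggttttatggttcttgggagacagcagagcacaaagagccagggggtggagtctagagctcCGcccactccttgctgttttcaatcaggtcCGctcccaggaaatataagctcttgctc
Hist1h2ba, chr13:23934157-23934406, minus strand: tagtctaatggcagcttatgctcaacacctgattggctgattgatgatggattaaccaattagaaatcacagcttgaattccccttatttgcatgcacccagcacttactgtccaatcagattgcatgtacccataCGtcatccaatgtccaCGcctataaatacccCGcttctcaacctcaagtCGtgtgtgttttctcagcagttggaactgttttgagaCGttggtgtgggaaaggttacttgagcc

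Hist2h2aa1, an H2A gene of chr3, carried 34 CG in these 250 bases, Hist3h2a 11 and Hist1h1d 10. The stretch of Hist1h3i held 6, and those of Hist4h4 and Hist1h2ba held 5 each. So a KDM2A peak in every list also occurred at a start as poor in CG as that of Hist1h2ba. Hist1h2ba and its neighbour Hist1h2aa are transcribed in opposite directions from 1 shared promoter, so its stretch also lies upstream of Hist1h2aa.

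RefSeq start regions of 300 bases (250 upstream and 50 downstream) were matched for 62 of the 67 members. The letters CCAAT, on either strand, occurred in 53 of the 62 (85.5%) against 37.4% of 32851 start regions of all genes. Every matched H1, H2A, H2B and H3 member held them, and 3 of 12 H4 members did. TATAAA occurred in 35 of 62 (56.5%) against 13.6%. The octamer letters ATTTGCAT occurred in 13 of 62 (21%) against 1.74%, in 7 of 18 H2A and 6 of 16 H2B members and in no H1, H3 or H4 member. Each motif was counted on its own, matches of different motifs may overlap, and a match says only that the letters are present. Genes that share a promoter, such as Hist1h2ba and Hist1h2aa, can both count the same site, so these are not counts of separate sites.

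The first question was whether KDM2A occupied the histone genes and whether that occupancy differed between genotypes. A KDM2A peak touched the window of 65, 59 and 61 of the 67 members in WT and of 62, 51 and 57 in KO. The WT mean was 61.7 ± 3.06 and the KO mean 56.7 ± 5.51 (SD, n = 3), and the genotypes overlapped. Over all protein-coding genes, 53.9% ± 1.42 had a peak in WT and 46.5% ± 3.71 in KO (SD, n = 3), and those ranges did not overlap. In all 6 lists a peak touched 48 of 67 members (71.6%) against 30.7% of all protein-coding genes, although the members are shorter. No member had a KDM2A peak in KO lists only, a pattern that was not counted over all protein-coding genes.

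KDM2A peaks covered 25.5%, 20.2% and 19.6% of the merged member windows in WT and 18.3%, 12.2% and 20.2% in KO. The male WT library was the highest and the female KO replicate 2 the lowest, while KO replicate 3 reached the level of the female WT libraries. The means were 21.7% ± 3.24 and 16.9% ± 4.22 (SD, n = 3), a KO level 0.779 times that of WT. Over the windows of all protein-coding genes coverage was 1.85% ± 0.318 in WT and 1.14% ± 0.291 in KO, 0.617 times, without overlap of the genotypes. These windows differ in length, so 2 kb on each side of the annotated start was read as well. There the mean KDM2A coverage was 43.6%, 33.6% and 31.1% at members in WT and 31.2%, 21.3% and 35.1% in KO, against 14.2%, 11.7% and 12.1% in WT and 9.01%, 7.96% and 11.4% in KO over all protein-coding genes. Coverage was higher at histone genes in every list on both measures, by a smaller factor in the equal windows. In the merged windows, the lower KO mean at histone genes was not separated from WT beyond the spread between libraries. Cluster chr13 B was the only cluster whose genotypes did not overlap in coverage of the merged windows, with 19.0% ± 2.34 in WT and 14.5% ± 3.72 in KO, but the ranges almost touched, since both WT replicate 3 and KO replicate 1 were at 16.9%. In the chr3 cluster, where all 10 members had a KDM2A peak in all 6 lists, coverage was 40.2% ± 8.36 in WT and 30% ± 8.99 in KO.

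**Figure D1:**
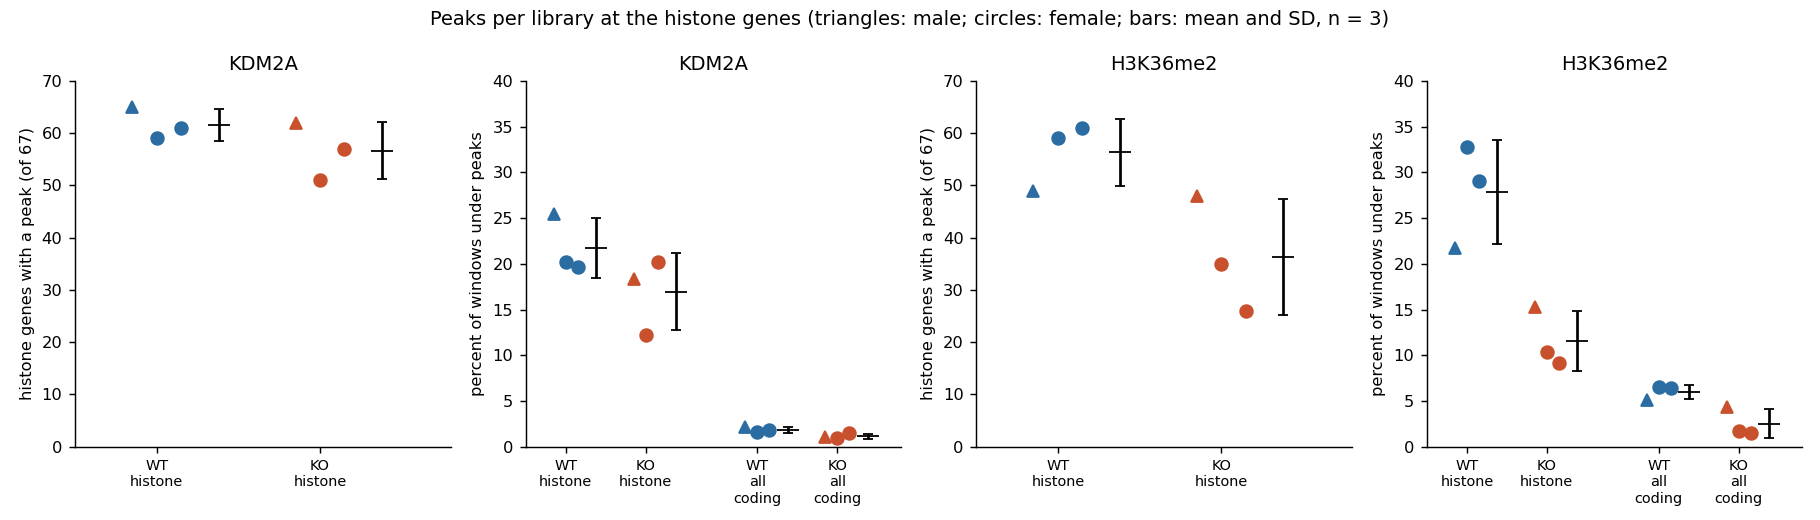
Number of the 67 histone genes with a peak, and percent of gene windows under peaks at histone genes and at all protein-coding genes, for each library (triangles male, circles female; bars, mean and SD of 3 libraries). KDM2A counts run from 51 to 65 and H3K36me2 counts from 26 to 61, and the female KO libraries have the fewest H3K36me2 genes.

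The peaks at members were wide and strong for their lists. Each list had 33 to 43 KDM2A peaks at members, with a median width of 761 to 1675 bp against 565 to 699 bp for the whole list. Their median fold over the local control was 3.11 to 3.43 against 2.61 to 2.87. Between 19 and 27 of these peaks in each list touched more than 1 member window. The 48 members with a peak in all 6 lists shared 32 distinct sets of folds. Peak centres lay a median of 216 to 298 bp from the nearest member start, and 67.4% to 83.8% of them lay within 500 bp.

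At the annotated start itself, 83.6%, 79.1% and 74.6% of members were under a KDM2A peak in WT and 68.7%, 53.7% and 73.1% in KO. The 3 KO libraries lay below the 3 WT libraries, with means of 65.2% ± 10.2 and 79.1% ± 4.48 (SD, n = 3). Among all protein-coding genes the means at the start were 33.7% ± 1.05 in WT and 28.1% ± 3.42 in KO, also without overlap. At 2 kb downstream the members were at 8.96% ± 2.99 in WT and 6.97% ± 3.45 in KO.

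**Figure D2:**
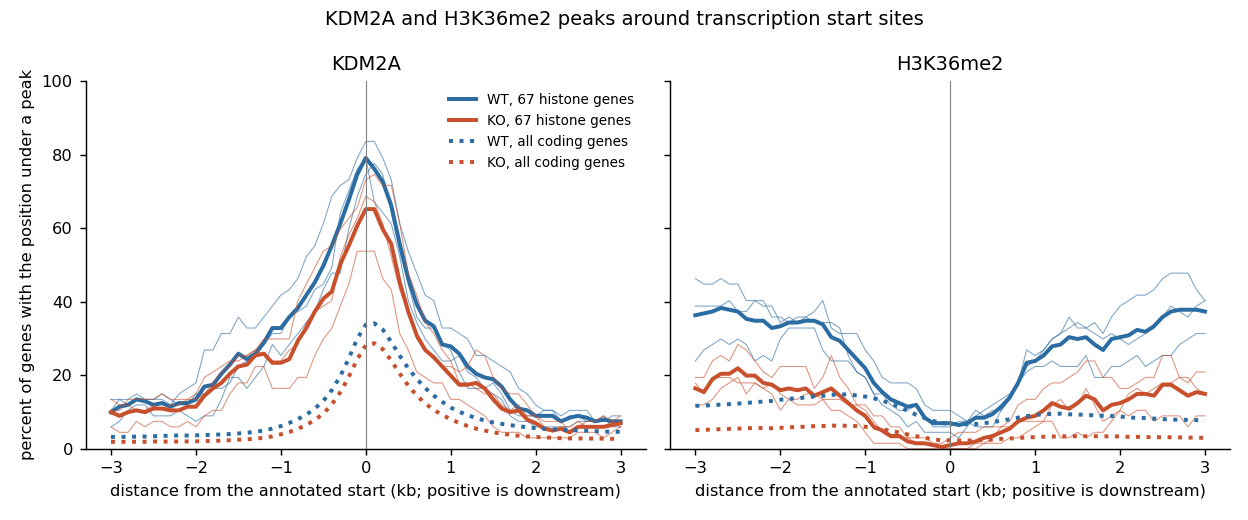
Percent of genes whose position at a given distance from the annotated start lies under a peak (thick lines, mean of 3 libraries; thin lines, single libraries; dotted lines, all protein-coding genes). KDM2A peaks at the start of the histone genes, at a mean of 79.1% in WT and 65.2% in KO, where H3K36me2 is lowest, at 6.97% and 0.995%.

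Named members show the range of KDM2A folds. The strongest belonged to chr3, where Hist2h2aa1 (H2A) and Hist2h3c1 (H3) shared a peak with folds of 3.68, 4.62 and 4.17 in WT and 3.10, 3.33 and 5.20 in KO. KO replicate 3 held the highest of these 6 values and KO replicate 1 the lowest, so the genotypes overlapped. The lowest mean of that cluster, from a peak shared by Hist2h2ab and Hist2h2ac (H2A) and Hist2h2be (H2B), still had folds of 3.62, 3.48 and 3.42 in WT and 3.49, 3.31 and 3.14 in KO. In chr13 B, the window of Hist1h1d (linker histone H1.3) held the highest mean, with 3.99, 4.52 and 3.67 in WT and 3.38, 3.62 and 3.70 in KO. Only the value of WT replicate 1 came from the peak at the RefSeq start of Hist1h1d (chr13:23554540-23556514), whose own folds were 3.99, 3.39 and 3.09 in WT and 2.64, 3.10 and 3.27 in KO. The other 5 belonged to peaks at Hist1h3e (H3) and Hist1h4f (H4) that its flanks reached. The window of Hist1h2be (H2B) followed with 3.46, 3.83 and 3.73 in WT and 3.93, 3.67 and 3.60 in KO, again with overlap. Its annotated gene is 37455 bp long and overlaps Hist1h1e, so its window holds peaks at other starts.

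In chr13 A the highest mean fold was that of Hist1h3i (H3), followed by Hist1h3h (H3), Hist1h2bl (H2B) and Hist1h2ai (H2A), which tie because they share 1 peak. Hist1h3i had 3.30, 3.9 and 3.61 in WT and 3.46, 2.68 and 3.38 in KO. The shared peak of the other three had 3.09, 3.77 and 3.79 in WT and 3.54, 2.65 and 3.25 in KO. At both peaks, KO replicate 2 was lowest and the other KO libraries lay among the WT values. On chr11, Hist3h2a had folds of 3.37, 3.56 and 2.92 in WT and 2.75, 3.47 and 2.87 in KO. Its neighbour Hist3h2ba (H2B) had no peak in WT replicate 3 and folds of 2.69 to 3.13 in the other lists. Hist4h4, the lone H4 gene of chromosome 6, had 3.29, 2.81 and 3.07 in WT and 2.87, 2.64 and 3.16 in KO. In the plot of members by library the missing KDM2A peaks gather in a few genes.

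**Figure D3:**
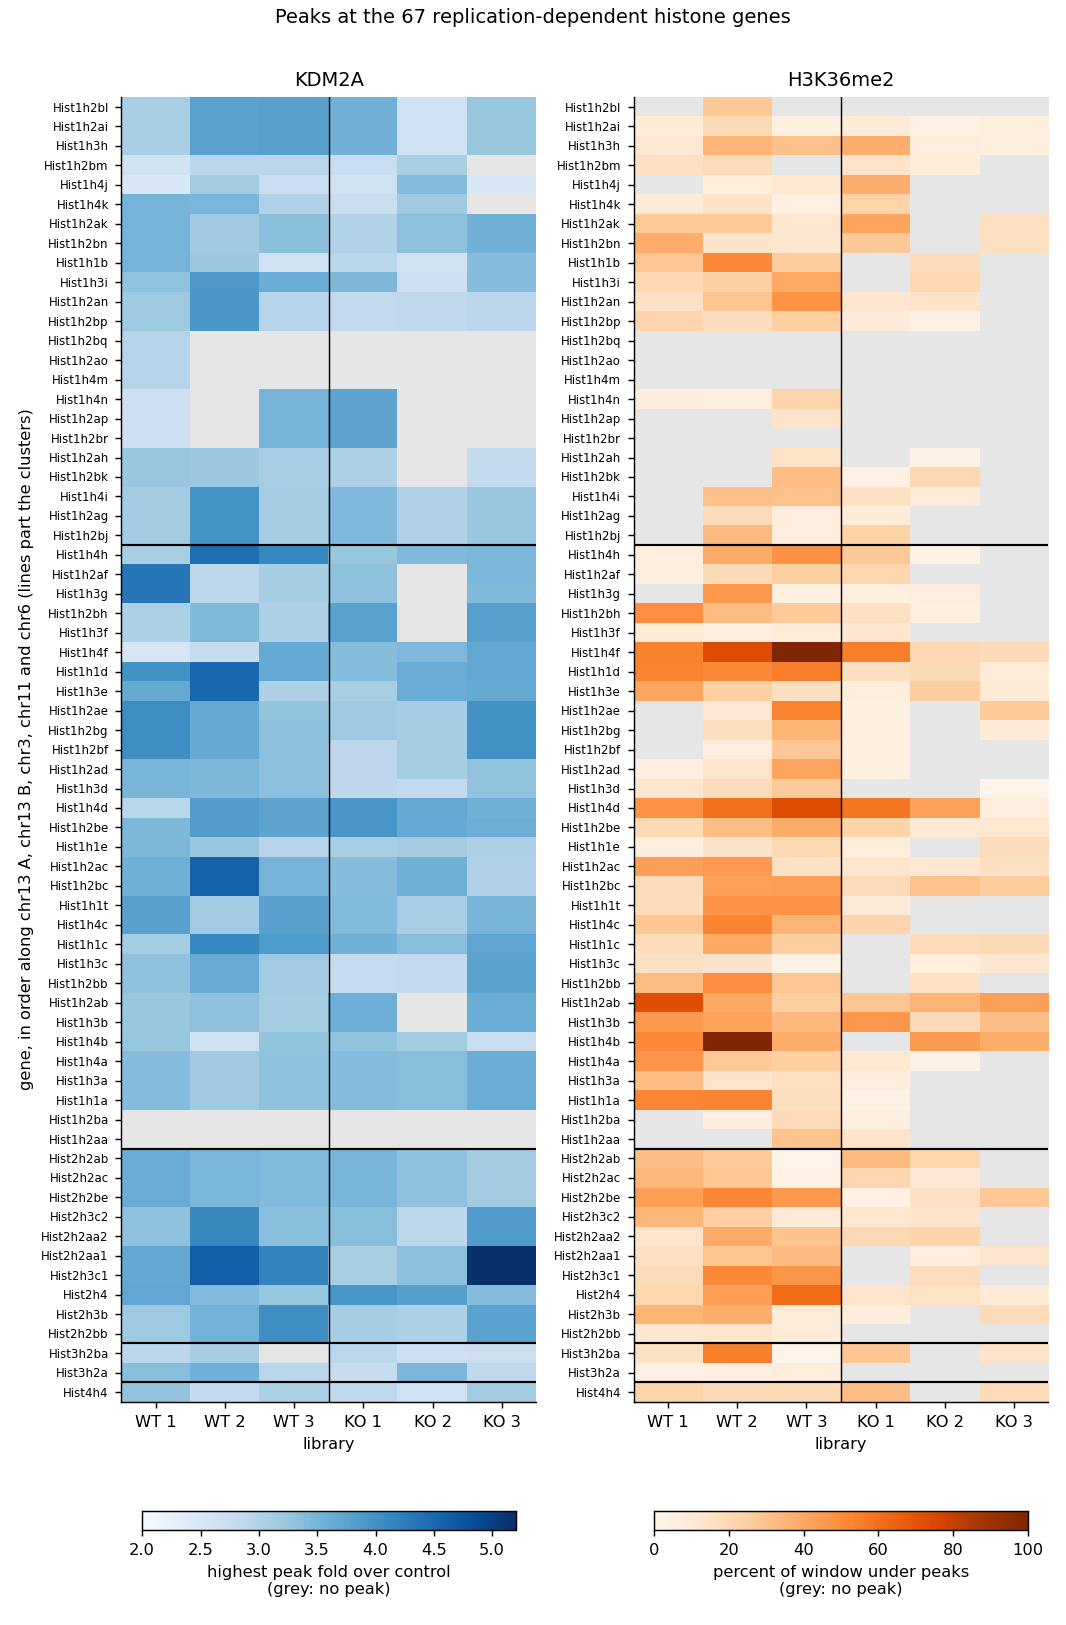
Highest KDM2A fold over control (left) and percent of the window under H3K36me2 peaks (right) for each of the 67 histone genes in each library, in order along the clusters; grey marks no peak. Hist1h2ba and Hist1h2aa have no KDM2A peak in any list, 6 neighbouring genes of chr13 A have 1 or 3, and the H3K36me2 panel is sparsest in KO replicates 2 and 3.

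The members without a regular KDM2A peak formed 2 kinds. Hist1h2ba and Hist1h2aa encode the testis-enriched TH2B and TH2A and had no KDM2A peak in any of the 6 lists. The other kind was a run of 6 genes in chr13 A. Hist1h2bq (H2B), Hist1h2ao (H2A) and Hist1h4m (H4) shared a peak of fold 2.97 in WT replicate 1 and had none elsewhere. Hist1h4n (H4), Hist1h2ap (H2A) and Hist1h2br (H2B) shared a peak of fold 2.68 in WT replicate 1, 3.50 in WT replicate 3 and 3.73 in KO replicate 1. The 11 remaining members below 6 lists had a peak in 5, and the missing list was KO replicate 2 for 8 of them, KO replicate 3 for 2 and WT replicate 3 for 1.

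The 2 kinds differed in sequence. In the run of 6, only 0.530% to 28.3% of the 50-base sequences of a window occurred once in GRCm38, with a median of 3.32%. In the 48 members with a peak in all lists the median was 87.7%. Reads from such repeated sequence cannot be placed at 1 gene, and the aligner's treatment of them was not given in the sources used here, so a missing peak in this run cannot be told apart from lost reads. In the windows of Hist1h2ba and Hist1h2aa 96.7% of the 50-base sequences were unique. Their starts held 49.0 and 44.0 CpG per kb over 500 bp on each side, below the member median of 61.9 and above the median of 41.0 for all protein-coding genes. The inverted pair on chr3 (Hist2h2aa1 with Hist2h3c1, Hist2h2aa2 with Hist2h3c2) has nearly the same sequence, so its folds are shared to an unknown degree.

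**Figure D4:**
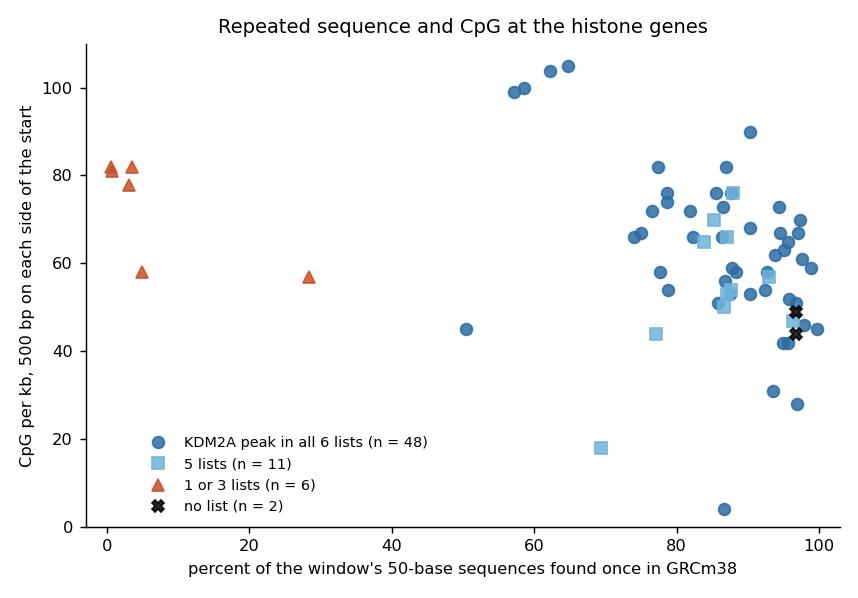
CpG per kb within 500 bp of the annotated start against the percent of 50-base sequences of the window found once in the genome, 1 point per histone gene, by the number of lists with a KDM2A peak. The 6 genes with 1 or 3 lists lie at 0.530% to 28.3% unique sequence, and the pair with no list at 96.7%.

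The lowest CpG density around an annotated start, 4.00 per kb, was that of Hist1h1d, whose GENCODE gene starts upstream of the RefSeq start used for its sequence above. Across the 67 members, CpG density around the start correlated weakly with mean KDM2A coverage (Pearson r = 0.20, Spearman rho = 0.15, n = 67). With the mean highest KDM2A fold it hardly correlated (Pearson r = 0.03, Spearman rho = 0.08, n = 67). These points share windows, peaks and base composition, and the values are descriptions only.

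KDM2A was sparse at the other genes inside the clusters. The spans held 9 protein-coding genes that encode no histone, and 8 of them shared no window with a member. Among those 8, none had a KDM2A peak in all 6 lists and 6 had none in any: Pom121l2, Trim38 and the solute carriers Slc17a1, Slc17a2, Slc17a3 and Slc17a4. All 8 had an H3K36me2 peak in at least 4 lists, and 4 had one in all 6. Hist1h1t, which encodes the testis linker histone H1t, had a KDM2A peak in every list, with folds of 3.78, 3.17 and 3.78 in WT and 3.42, 3.11 and 3.51 in KO. That peak (chr13:23697527-23699132) lies over Hist1h4c (chr13:23697635-23698454), an H4 gene, and beyond the end of Hist1h1t (chr13:23695814-23696725), so it reached Hist1h1t only through its flank.

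H3K36me2 was read in the same windows. A peak touched 49, 59 and 61 of the 67 members in WT and 48, 35 and 26 in KO. The means were 56.3 ± 6.43 in WT and 36.3 ± 11.1 in KO (SD, n = 3), and the genotypes did not overlap. Over all protein-coding genes, 51.8% ± 1.34 had an H3K36me2 peak in WT and 36.5% ± 13.7 in KO, where KO replicate 1 (52.3%) lay among the WT values. The difference of −20 members became −7.67 with no flank, −8 with flanks of 5 kb and −10.7 for peaks with −log10 q of at least 2. The male libraries differed by 1 member and the female means by 29.5, so the gap lay in the female libraries. A peak was present in all 3 WT lists at 48 members and in all 3 KO lists at 13. No member had an H3K36me2 peak in KO lists only, and 9 had none in any KO list. Hist3h2a, Hist1h4n and Hist2h2bb (H2B) had a peak in all WT lists and in no KO list. These patterns were not counted over all protein-coding genes, and the female KO lists were short across the genome. The counts therefore do not set the members apart. A peak in all 6 lists was present at 19.4% of members and 18.6% of all protein-coding genes. The members of the repeated run again stood out, since Hist1h2bq, Hist1h2ao, Hist1h4m and Hist1h2br had no H3K36me2 peak in any of the 6 lists.

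H3K36me2 peaks covered 21.7%, 32.8% and 29.0% of the merged member windows in WT and 15.2%, 10.3% and 9.13% in KO. Every KO library lay below every WT library. The means were 27.8% ± 5.66 and 11.6% ± 3.24 (SD, n = 3), a KO level 0.415 times that of WT. The difference of −16.3 points became −9.14 with equal numbers of the strongest peaks from each list and −3.76 for peaks with −log10 q of at least 2. Over all protein-coding genes the means were 6.01% ± 0.788 and 2.51% ± 1.60, 0.419 times, also without overlap. The KO to WT ratio at histone genes was therefore close to that of coding genes at large. In the equal windows of 2 kb on each side of the start, mean H3K36me2 coverage in WT was 17.6%, 24.2% and 21.1% at members against 9.69%, 10.4% and 10.9% over all protein-coding genes. The level at members was the higher in all 6 lists, by a smaller factor than in the windows of whole genes. The male KO library fell short of the male WT library by 6.45 percentage points and the female means differed by 21.2.

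The types differed in the size of the gap. H1 windows were covered at 32.5%, 43.2% and 35.5% in WT and 7.79%, 11.0% and 8.07% in KO, a KO level 0.241 times that of WT. The genotypes were far apart in these 6 libraries, the male ones included. H3 windows had 23.6% ± 3.85 in WT and 8.68% ± 2.31 in KO, H2A windows 18.5% ± 2.68 and 8.55% ± 2.62, and H2B windows 22.7% ± 5.28 and 10.2% ± 2.99 (SD, n = 3), all without overlap. H4 windows had 31.0% ± 8.11 and 13.6% ± 8.69 and overlapped, with the male KO library (23.6%) above the male WT library (21.7%). Whether the types differ from each other was not tested. For KDM2A coverage of the merged windows all 5 types overlapped between genotypes, from 39.7% ± 9.19 and 29.8% ± 10.3 at H3 to 19.1% ± 3.44 and 15.7% ± 3.06 at H2B. By mean coverage per gene H4 was lowest, at 25.2% in WT and 19.6% in KO, against 25.7% and 22.1% at H2B. At H4 genes other KDM2A measures did not overlap, since the peaks that touched them numbered 13 to 14 in WT and 10 to 12 in KO, and the median of the highest folds, over H4 genes with a peak, was 3.15 to 3.29 in WT and 3.36 to 3.43 in KO. Over all protein-coding genes the peak numbers did not overlap either, at 18486 to 22050 in WT and 12550 to 16959 in KO. The median fold there overlapped, at 2.89 to 3.16 and 2.89 to 2.97. The H4 values are among many measures by type and rest on few genes.

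**Figure D5:**
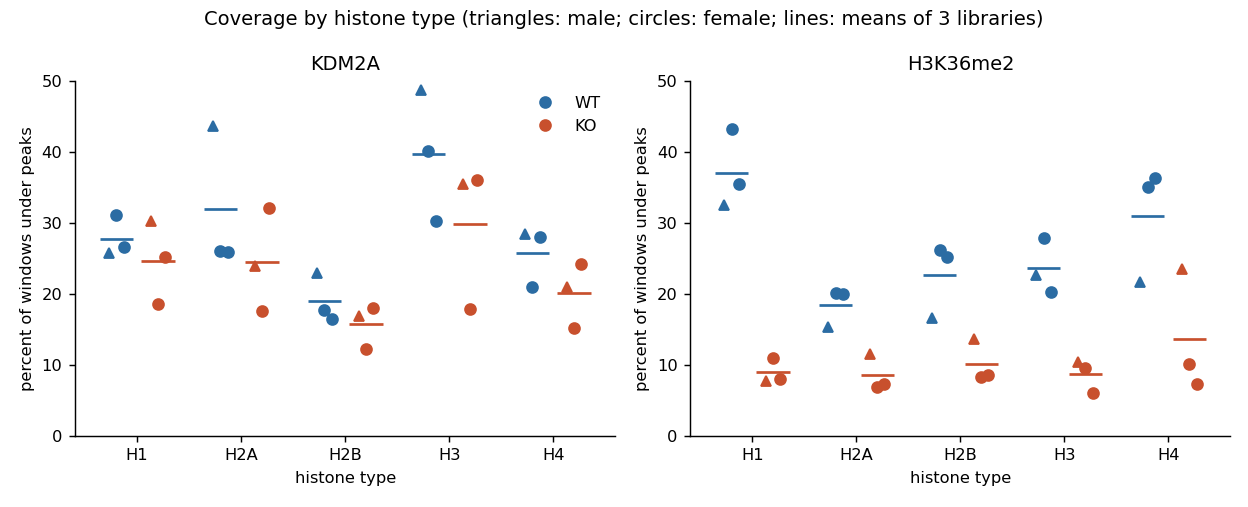
Percent of the merged windows under KDM2A (left) and H3K36me2 peaks (right) by histone type in each library (triangles male, circles female; lines, mean of 3 libraries). H3K36me2 at H1 genes lies at 32.5% to 43.2% in WT and 7.79% to 11.0% in KO, and the KDM2A ranges of the genotypes overlap for every type.

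By cluster, H3K36me2 coverage was lower in KO without overlap in chr13 B (33.9% ± 6.33 in WT, 14% ± 2.54 in KO) and chr3 (38.5% ± 7.65 and 13.2% ± 2.18). In chr13 A it was 13.4% ± 4.16 and 6.11% ± 5.43, with overlap, and this cluster also held the least H3K36me2 of the 3 large ones in both genotypes. It holds the repeated run described above, and the part of that run in its low level was not tested.

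KDM2A and H3K36me2 occupied different stretches of the same windows. H3K36me2 peak centres lay a median of 1696 to 2043 bp from the nearest member start, and 0% to 7.27% lay within 500 bp. At the start 6.97% ± 3.11 of members were under an H3K36me2 peak in WT and 0.995% ± 1.72 in KO, against 30.3% ± 8.22 and 12.4% ± 3.45 at 2 kb downstream. Of the member bases under KDM2A peaks, 11.5%, 8.36% and 8.89% also lay under H3K36me2 peaks in WT and 4.35%, 0% and 0.482% in KO. The WT values in all protein-coding windows were 17.0%, 14.9% and 16.3%, and the KO values 9.78%, 2.07% and 2.65%. The shared part of the member windows was below the product of the 2 coverages in every library, for example 2.93% against 5.52% in WT replicate 1. Windows that held both kinds of peak numbered 49, 57 and 58 of 67 in WT and 46, 29 and 26 in KO.

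The next question was whether single genes differed between genotypes. Tests were run with limma over all genes that could be tested, and p-values were adjusted by Benjamini-Hochberg and called below 0.05. For KDM2A coverage 0 of 4804 genes and 0 of 61 testable members passed (0% called). For H3K36me2 coverage 0 of 6275 genes and 0 of 59 members passed, again 0%. For the highest fold, on a log2 scale centred per library, 0 of 6737 genes and 0 of 48 members passed for KDM2A, and 0 of 4077 genes and 0 of 13 members for H3K36me2. At an unadjusted p under 0.05, limma gave 826 genes and 5 members for KDM2A coverage, 2422 genes and 22 members for H3K36me2 coverage, 343 genes and 1 member for KDM2A fold, and 215 genes and 0 members for H3K36me2 fold. The 1 member, Hist1h4f (H4), was looked up after its value was seen, and its KDM2A log2 fold was higher in KO by 0.32 (SE 0.13) with an adjusted p of 0.908 by limma.

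The count of H3K36me2 calls depended on the male KO library. Without KO replicate 1, limma called 2719 of the 6275 genes and 13 of the 59 members with Benjamini-Hochberg adjustment, all 13 with less H3K36me2 in KO. These 13 were Hist1h1a, Hist1h1d and Hist1h1t (H1), Hist1h2bb, Hist1h2bh, Hist1h2bp, Hist2h2bb and Hist2h2be (H2B), Hist1h3a and Hist1h3d (H3), and Hist1h4a, Hist1h4c and Hist1h4f (H4). With 2 KO libraries left, both female, sex and genotype are no longer balanced. Genes entered this test on their mean coverage over both genotypes. Members with little or no coverage in KO, such as Hist1h3d and Hist2h2bb, therefore entered through WT and had to be lower in KO. The direction of these 13 calls rests in part on that filter.

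Among members with a testable H3K36me2 coverage, 18 of 59 (30.5%) had all KO libraries below all WT libraries, fewer in proportion than the 43.4% of all 6275 genes, and 0 had them above (0.0637% of all genes). A gene was testable with a mean coverage of at least 5% over the 6 libraries, so members such as Hist2h2bb, with no peak in KO, entered through WT alone and had to differ, and these counts rest in part on that filter. The 5 largest of these differences were at Hist1h1a, Hist1h1d, Hist1h1t, Hist2h3c1 and Hist1h2bb, and 4 of the 6 H1 genes were among the 18. Hist1h4f (−44.3 points) and Hist1h4b (−35.7 points), whose genotypes overlapped, are not in this count. Hist1h1a (linker histone H1.1) was covered at 52.5%, 52.8% and 16.5% in WT and 2.66%, 0% and 0% in KO. The difference was −39.7 percentage points (SE 9.50, limma adjusted p = 0.0875). Hist1h1d had 53.2%, 51.5% and 55.0% in WT and 17.2%, 19.5% and 7.65% in KO, while its KDM2A coverage of 21.1% ± 6.33 in WT and 25.1% ± 5.37 in KO overlapped. Its H3K36me2 difference was −38.5 points (SE 9.50, limma adjusted p = 0.0875).

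Hist1h1t had 18.2%, 47.4% and 47.5% in WT and 9.36%, 0% and 0% in KO, a difference of −34.6 points (SE 8.71, limma adjusted p = 0.0875). Hist1h2bb (H2B) had 32.2%, 49.3% and 28.2% in WT and 0%, 14.8% and 0% in KO, a difference of −31.7 points (SE 8.01, limma adjusted p = 0.0875). At these genes the male KO library also lay below all WT libraries, which their choice for non-overlapping genotypes required. Hist2h3c1 had 18.4%, 51.4% and 46.8% in WT and 0%, 17.2% and 0% in KO, a difference of −33.1 points (SE 9.63, limma adjusted p = 0.0907). Its lowest WT value, from the male library, was just above its highest KO value.

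For KDM2A coverage 8 of 61 testable members (13.1%) had all KO libraries below all WT libraries against 24.4% of all 4804 genes, and 0 had them above (0.416% of all genes). Among these 8, the 5 largest differences came from 3 peaks. Larger differences whose genotypes overlapped, such as −32.6 points at Hist2h2aa1, are not in this count. Hist1h2bn (H2B) was covered at 62.9%, 49.1% and 22.2% in WT and 8.86%, 16.6% and 20.1% in KO, and Hist1h2ak (H2A), transcribed in the opposite direction, shared the same peak. The difference at Hist1h2bn was −29.6 points (SE 11.0, limma adjusted p = 0.266), and WT replicate 3 was close to KO replicate 3. Hist1h2ab (H2A) had 41.2%, 34.3% and 23.5% in WT and 17.9%, 0% and 5.95% in KO, a difference of −25.0 points (SE 7.22, limma adjusted p = 0.249). Hist1h3b (H3) shares that peak and had a difference of −24.2 points (SE 7.01, limma adjusted p = 0.249).

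Hist1h4b (H4) had 12.6%, 31.7% and 33.2% in WT and 6.71%, 10.4% and 11.2% in KO, a difference of −16.4 points (SE 6.52, limma adjusted p = 0.272). The lowest WT library, the male one, was only just above the KO libraries there. The highest KDM2A fold, on the centred log2 scale, had a lower mean in KO at 35 of 48 members (72.9%) against 50.0% of all genes, with a median change of −0.03, and many of these members share a peak. Here 0 of 48 members were lower in KO without overlap (5.3% of all genes) and 3 were higher (6.25%, against 5.27% of all genes). The 3 were Hist1h4a, Hist1h3a and Hist1h1a, which share 1 peak and so count as 1 observation. For the H3K36me2 fold, 0 of 13 members were lower or higher without overlap, against 5.96% and 5.37% of all genes.

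A rule modelled on that of the study was then applied to the deposited KDM2A folds. The study divided averaged peak signal by input signal, so its enriched intervals need not be the same as these. Peaks of the 6 lists were merged where they overlapped, an interval was bound in WT or KO if 2 or more of the 3 libraries held a peak, and it was enriched in 1 genotype when its mean fold there exceeded 3 and, if bound in both, exceeded the other mean 1.17-fold. The member windows met 43 intervals, of which 37 were bound in at least 1 genotype. Of these 37, 36 (97.3%) were bound in both genotypes, against 55.3% of all 16511 bound intervals. WT only accounted for 1 (2.7% against 35.8%) and KO only for 0 (0% against 8.96%). In all 6 lists a peak was present at 29 of the 43 member intervals (67.4%) against 7.73% of 67881 intervals. KDM2A intervals at histone genes were thus shared between genotypes more regularly than intervals at large, without a test of that difference, since neighbouring intervals and genes are not independent.

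By the same rule 1 of the 37 was WT-enriched (2.7% against 9.14% of all) and 2 were KO-enriched (5.41% against 1.91%). The WT-enriched interval (chr13:21831529-21832265) lies in the repeated run at Hist1h4n, Hist1h2ap and Hist1h2br. It has this label because only WT had a peak in 2 libraries (folds 2.68 and 3.50), while the fold of the 1 KO library with a peak, KO replicate 1, was higher at 3.73. The first KO-enriched interval (chr13:23542346-23545065), at Hist1h2bh and Hist1h3f, had mean folds of 3.18 (WT) and 3.78 (KO), and KO replicate 2 had no peak there. The second (chr13:23550847-23551870), at Hist1h4f and within the flank of Hist1h1d, had 2.98 in WT and 3.51 in KO. Without KO replicate 3 or WT replicate 1 no member interval was KO-enriched, while all intervals held 196 and 560 such ones. WT-enriched member intervals numbered 10 without KO replicate 3 and 9 without KO replicate 1, and the count over all intervals rose as well, from 1509 to 2444 and 2214, so these labels depend on single libraries.

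Histone genes outside the symbol rule and genes that serve histone expression were read beside the members. One of them, H2afj, neighbours Hist4h4, and their windows overlap and share H3K36me2 peaks, so it is not independent of the members. For comparison, 30.7% of all protein-coding genes had a KDM2A peak in all 6 lists. Of 11 genes of replacement and linker variants, which are expressed outside S phase as well, 7 had a KDM2A peak in all 6 lists and 1, H2afy2, had none. The highest mean fold was 4.56 at H3f3b, which encodes H3.3, followed by 4.06 at H2afv and 3.55 at H2afz, both genes of H2A.Z. An H3K36me2 peak touched 6, 6 and 7 of the 11 in WT and 8, 2 and 2 in KO, and over all protein-coding genes the shares were 50.3% to 52.6% in WT and 52.3%, 27.4% and 30% in KO, with the same contrast of the male and female KO libraries. Of 20 genes for transcription and 3′-end processing of histone transcripts, 13 had a KDM2A peak in all 6 lists and none lacked it in every list. Slbp, the stem-loop binding protein of histone transcripts, had the highest mean fold (3.86), and Hinfp, an H4 gene activator, had 3.53. The lowest were Cstf2t and Cstf2, subunits of a cleavage factor, each with a KDM2A peak in 2 lists and no H3K36me2 peak in any.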

How the data were processed

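Per the authors' methods and the submitters' processing notes, reads were aligned by BWA (GRCm38), and MACS2, run within nf-core/chipseq, gave 1 deposited list of broad peaks per library. Each deposited peak has a fold, a ratio over local control, −log10 of a p-value and of a q-value, and a score that was not used. No read counts were given, so depth is unknown and no counting interval can be given. Members, gene lists and tests were chosen with earlier results of these data known. A gene had a peak when at least 1 bp of its window lay under it. Coverage is the percent of a window under peaks. Fold tests took genes with a peak in all 6 lists (log2, centred on each library's median). Coverage tests took genes with a mean of at least 5%. limma 3.58.1 (R 4.3.3, trend, 3 libraries per genotype) was tested on simulated data, where it recovered 68.5% of changes of 40 points and 0% of 20 points in H3K36me2 coverage, and 74% and 19.5% in KDM2A coverage. Named genes were the 2 highest and 2 lowest KDM2A folds per cluster, the 5 largest non-overlapping coverage differences per antibody and direction, and members without a KDM2A peak. Alternatives changed the window, peak threshold, list length, scaling and libraries. Other values came from Python 3.11.15, numpy 2.4.6, pandas 2.3.3 and scipy 1.17.1.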

Additional observations from a re-analysis of the deposited data

Results flagged for a closer look

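The labels give a male and a female comparison of the genotypes. Of 44 measures (peak counts and coverage by cluster and type, 2 antibodies), 8 went one way in the male pair and the other way in all 4 pairs of female libraries. The sexes were not tested against each other, since each genotype had 1 male library, and replicate number and sex cannot be told apart. For KDM2A this held for coverage of the H1 windows, 4.51 percentage points higher in the male KO library than in the male WT library and 1.31 to 12.6 points lower in the female pairs (−12.6 to −1.31). For H3K36me2 it held in chr13 A, where the male KO library had a peak at 2 members more and a coverage 3.33 points higher, while female differences ran from −13 to −6 members and from −15.2 to −10.1 points. In chr13 B the male KO library had 1 member more, against −15 to −13. Among H2A genes it had 1 more and among H2B genes 3 more. Coverage was 1.86 points higher at H4 genes, against −29.0 to −25.0, and 8.32 points higher at Hist4h4, the chr6 member, against −19.6 to −0.583. The opposed H3K36me2 peak counts were not particular to histone genes. Over all protein-coding genes, the number with an H3K36me2 peak differed by 441 in the male pair and by −5256 between the female means (KO minus WT). H3K36me2 coverage there was lower in KO in both, with differences of −0.736 and −4.87 points. The male KO list was also the longest of the H3K36me2 lists, with 106720 peaks, and the part of list length in these values was not tested.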

How the results depend on the processing

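All values here are KO minus WT. The KDM2A counts of members and KDM2A coverage kept their direction and moved by less than the spread between libraries under all 13 alternatives. The H3K36me2 count of members with a peak (−20) became −7.67 with no flank, −8 with 5 kb and −10.7 for peaks with −log10 q of at least 2. H3K36me2 coverage (−16.3 points) became −3.76 points under that threshold and −9.14 with equal numbers of strongest peaks. Leaving out the 6 members of the repeated run, chosen after seeing the data, changed none of these beyond the spread. Leaving out single libraries gave −7.67 to −2.17 members and −6.47 to −2.44 points for KDM2A, and −25.8 to −14.8 members and −19.4 to −13.8 points for H3K36me2. In the limma tests it gave 0 to 1 calls for KDM2A fold (1 without WT replicate 3), 0 to 1 for H3K36me2 fold (1 without KO replicate 2), 0 to 2719 for H3K36me2 coverage and 0 to 13 of its members (both highest without KO replicate 1), and 0 for KDM2A coverage. For the enrichment rule it gave 2 to 10 WT-enriched and 0 to 2 KO-enriched member intervals (897 to 2444 and 196 to 702 over all intervals), and scaling the lists to a common median fold gave 1 KO-enriched. The causes were not tested.

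Replicate numbers did not pair the libraries, since deviations of same-numbered WT and KO libraries correlated at −0.05 to 0.07. With a replicate block limma called 57 genes for H3K36me2 coverage, 2 of them members (Hist1h1a and Hist1h1t), and 1 gene for H3K36me2 fold, no member. The 10 members named for their coverage kept their direction in every alternative run (57 for H3K36me2 and 60 for KDM2A). They were chosen because all KO libraries lay below all WT libraries. Leaving out 1 library or adding the replicate block could therefore not reverse them. Depth is unknown. Every KO list of KDM2A was shorter than every WT list, and with equal numbers of strongest peaks its differences were −4.67 members (−5 in the full lists) and −4.55 points (−4.81). The male KO list was the longest for H3K36me2. Broad peaks shared by neighbouring genes make the members' values dependent on each other.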

Other observations

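A pair of H4 genes carried H3K36me2 over the whole window in 1 WT library each, and they were picked out after their values were seen. At Hist1h4f the mark covered 53.6%, 72.8% and 100% in WT and 54.9%, 20% and 18.6% in KO. Hist1h4b was covered at 51.4%, 100% and 37.5% in WT and at 0%, 44.5% and 37.2% in KO. The genotypes overlapped at both. KDM2A coverage of these windows was 14% ± 6.5 and 10.2% ± 2.93 at Hist1h4f and 25.8% ± 11.5 and 9.42% ± 2.38 at Hist1h4b (SD, n = 3, WT and KO). Inside the clusters, the solute carrier gene Slc17a4 had an H3K36me2 peak in all 6 lists, a mean coverage of 49.4% and no KDM2A peak.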
